A study of Mus musculus with 12 samples.

Results

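Gene expression was compared between mouse corneas injured with benzalkonium chloride (BAK) and given UCS drops, and BAK-injured Vehicle corneas. The comparison used 6 of the 12 libraries of the series, 3 UCS and 3 Vehicle, and covered every gene in the table. UCS corneas received 5 µl of 20% UCS 3 times a day for 10 days, and the labels describe Vehicle corneas as injured and untreated. All 6 libraries came from eyes dosed daily with 5 µl of 0.2% BAK over 14 days. Each library is a pool of 6 corneas from 3 mice, so the spread between libraries is a spread between pools. The series also holds 3 UCPRP libraries (injured in the same way and given 20% UCPRP drops) and 3 uninjured Control libraries, which are used below for orientation. UCS is not spelled out in the labels, and the series title speaks only of biologics from cord blood. The sources used here do not give the strain, the age and sex of the mice, the order of BAK and drops, whether Vehicle eyes received any drops, or the time of harvest.

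BAK is a detergent preservative of eye drops that damages the ocular surface. Injured corneal epithelium releases IL-1 family cytokines and chemokines, which draw in neutrophils and then macrophages. Proteases and matrix proteins remodel the stroma, TGF-β acts on keratocytes and epithelium, and new vessels can grow in from the limbus. When limbal stem cells are lost, conjunctiva-type epithelium with mucin-secreting goblet cells can cover the cornea. Serum products of blood are used as eye drops because they carry growth factors.

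The labelled tissue was checked first. Krt12, the keratin that defines corneal epithelium, had 18.9, 40.3 and 8.68 counts scaled to a library total of 1 M (CPM) in UCS libraries 1, 2 and 3, and 9.19, 7.18 and 23.9 CPM in Vehicle libraries 1, 2 and 3, while Control corneas averaged 22560 CPM. Pax6, the master regulator of eye development, was present throughout, at 480 to 576 CPM in UCS and 381 to 445 CPM in Vehicle. Krt13, a keratin of conjunctival and other mucosal epithelia, had 8476 to 10813 CPM in UCS and 7287 to 10623 CPM in Vehicle, against a Control mean of 2988 CPM. The defining corneal keratin was thus close to absent in both injured groups, beside a keratin of conjunctiva above its Control level. Between Vehicle and Control, 2661 of 16124 genes (16.5%) passed edgeR's quasi-likelihood test at an adjusted p under 0.05, 1545 of them higher in Vehicle and 1116 lower.

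Totals of the 6 libraries ran from 18.554 to 19.489 M estimated counts, and 17706 to 17890 genes had reads. For a gene with no reads, up to 3 counts (0.1539 to 0.1617 CPM) remain possible, from counting error alone. Distances between libraries of the 2 groups spanned much the same range as those within a group. Pairs of one UCS and one Vehicle library had 578 to 1820 genes at least 2-fold apart, pairs within UCS had 619 to 1255, and pairs within Vehicle had 829 to 1723. One split ran across both groups. Dbp, a circadian output gene, lay below Arntl, a core clock gene of the opposite phase, in UCS 1 (23.96 against 44.68 CPM), Vehicle 1 (14.66 against 39.12 CPM) and Vehicle 2 (25.89 against 47.72 CPM). Dbp lay above Arntl in UCS 2 (160.7 against 13.6 CPM), UCS 3 (139.4 against 22.01 CPM) and Vehicle 3 (163.5 against 19.45 CPM). The libraries are called low-Dbp and high-Dbp below, and for the main results values are also given within them, as 1 UCS against 2 Vehicle libraries and as 2 UCS against 1 Vehicle library.

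No gene passed the test between UCS and Vehicle. Of 16124 genes tested, 0 (0%) were called at an adjusted p under 0.05, and the lowest adjusted p of edgeR's quasi-likelihood test was 0.894. At an unadjusted p under 0.05 there were 782 genes (4.85%), 254 higher (1.58%) and 528 lower (3.27%) in UCS, where 806 would lie under that threshold if p-values were uniform. All 3 UCS libraries lay above all 3 Vehicle libraries for 810 genes (5.02%) and below them for 715 genes (4.43%). The fitted value was higher in UCS for 7800 genes and lower for 8323 genes. The fitted difference reached 2-fold for 80 genes higher and 331 genes lower in UCS. Limma-voom also called 0 genes, with 747 at an unadjusted p under 0.05. DESeq2 called 2 genes higher (Zbtb16 and Gm40814) and 12 lower (among them Retnlg, Snai1, Thbs1, Myh13, Tgfb3, Hdc, Cxcl5, Mmp3, Lrg1, Csf3r and Cxcr2). A test of single values over 3 and 3 libraries could not have gone below an exact permutation p of 0.1.

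The intervals show which sizes of difference the data leave room for. The 95% interval of the log2 fold change, taken gene by gene, lay within 2-fold either way for 12778 genes (79.2%) and within 1.5-fold either way for 9281 genes (57.6%). For the other 3346 genes the interval reached 2-fold or beyond in some direction, counting 1 gene for which no interval could be computed. The median gene had a standard error (SE) of 0.171 and an interval of 1.3-fold either way. The share differed with expression level. Of 1028 genes with a mean under 1 CPM, 9.92% had an interval within 2-fold. The share was 60.5% of 3854 genes from 1 to 10 CPM, 91.6% of 9172 genes from 10 to 100 CPM and 94.1% of 2070 genes above 100 CPM. Gapdh, a glycolytic enzyme, had an interval from −0.42 to 0.24, Actb, cytoplasmic actin, one from −0.54 to 0.46, and Krt5, the basal epithelial keratin, one from −0.57 to 0.57. The tightest intervals among genes above 100 CPM were those of Ppp6r3 (−0.09 to 0.22), Ccdc47 (−0.19 to 0.12), Ccar1 (−0.18 to 0.15), Clptm1 (−0.24 to 0.09) and Tmem259 (−0.02 to 0.30).

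**Figure D1:**
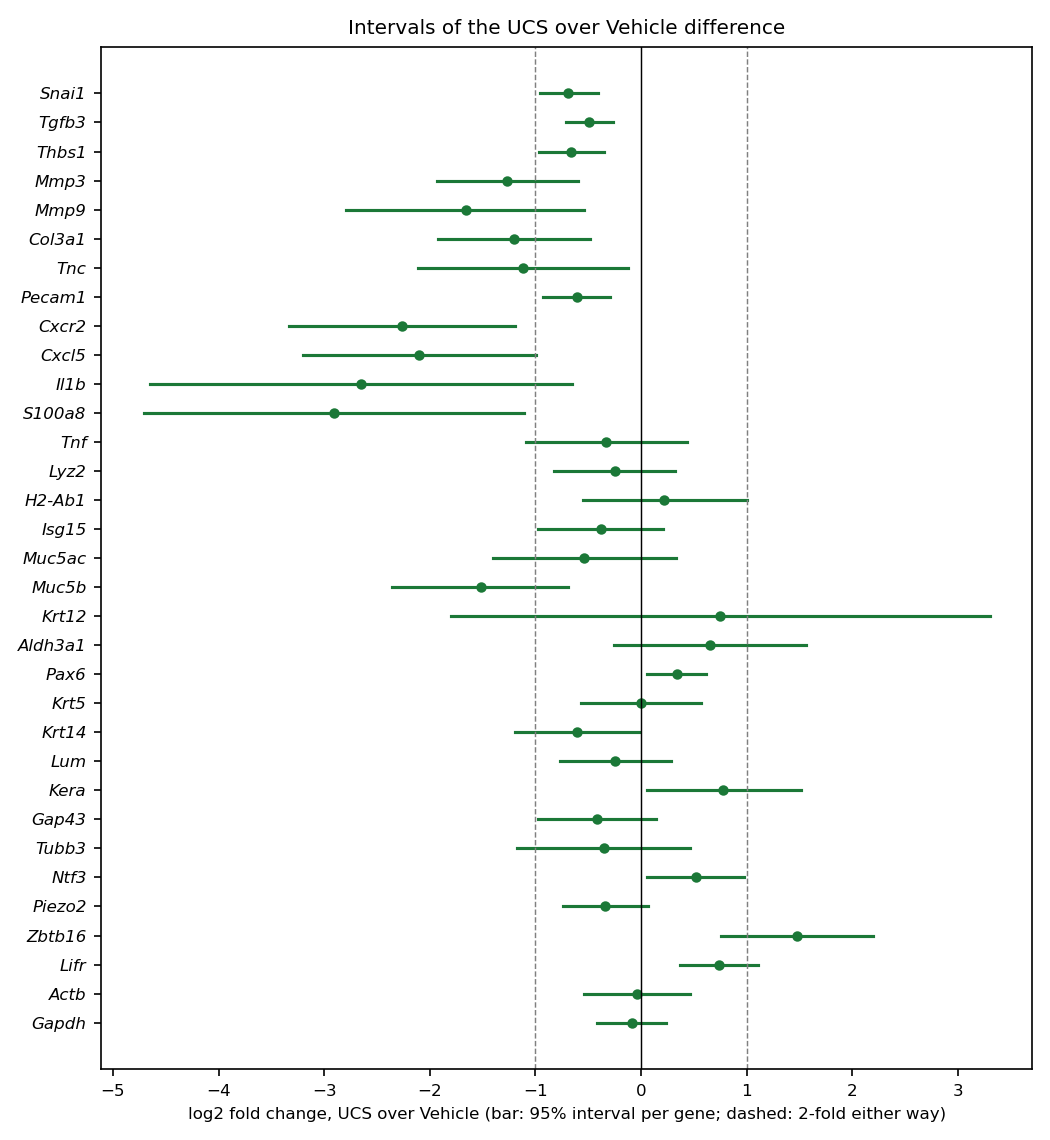
Log2 fold change of UCS over Vehicle for named genes, with the 95% interval of each gene from edgeR and dashed lines at 2-fold either way. Il1b, S100a8 and Krt12 have wide intervals, while those of Snai1, Tgfb3, Thbs1 and Pecam1 are narrow and lie below 0. Snai1, Mmp3, Cxcr2, Lifr and Zbtb16 were named by a rule that required no overlap between the groups, and Tgfb3 and Thbs1 also meet that condition. For these genes an interval away from 0 is no separate support. No gene passed adjustment over 16124 genes.

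Neutrophil transcripts had the lowest list median after skeletal muscle, and their highest summed levels stood in Vehicle 1 and 2 (1573 and 1433 CPM). The sum in UCS 3 (1105 CPM) was above that in Vehicle 3 (804.1 CPM). In the neutrophil list 12 of 13 tested members had a lower and 1 a higher fitted value in UCS. The median log2 fold change was −1.97, against −0.007 over all genes. The higher member was Ly6g, at 0.01, and Lcn2 (−0.39) and Ltf (−0.61) also lay nearer to 0 than the median. Of the 13, 8 were lower at an unadjusted p under 0.05, against 3.27% of all genes. In 1 of the 13 all UCS libraries lay below all Vehicle libraries, against 4.43% of all genes, so the list's separation of single libraries was close to the background. S100a8, a calprotectin subunit of neutrophils, had 1.17, 3.32 and 10.2 CPM in UCS 1, 2 and 3, and 48.8, 55.2 and 6.33 CPM in Vehicle 1, 2 and 3. Its log2 fold change was −2.91 (SE 0.82, interval −4.71 to −1.11). Csf3r, which encodes the G-CSF receptor of granulocytes, had 11.6, 22.8 and 36.4 CPM in UCS and 149, 140 and 31.0 CPM in Vehicle 1, 2 and 3 (log2 fold change −2.18, SE 0.54; −0.07 in high-Dbp and −3.64 in low-Dbp libraries). Vehicle 3 lay among the UCS libraries for both genes. Cxcr2, the receptor by which neutrophils follow ELR chemokines, was the member without overlap, at 5.58, 7.87 and 9.70 CPM in UCS and 50.7, 49.3 and 11.1 CPM in Vehicle (a log2 fold change of −2.26, SE 0.49, interval −3.33 to −1.19; −0.33 in high-Dbp and −3.16 in low-Dbp libraries). Camp and Elane, granule genes made in the marrow, were at or near 0 in all 6 libraries. In bulk tissue fewer cells of a type and less RNA per cell cannot be told apart.

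Ligands and cytokines followed the same libraries. Il1b, the IL-1 cytokine made mainly by myeloid cells, had 3.51, 6.21 and 24.9 CPM in UCS and 113, 97.1 and 7.56 CPM in Vehicle, against a Control mean of 1.344 CPM. UCS 3 was above Vehicle 3, so the groups overlap; the log2 fold change was −2.65 (SE 0.90, interval −4.65 to −0.65). Cxcl5, a neutrophil-attracting chemokine, had 33.8, 28.7 and 54.0 CPM in UCS and 233, 214 and 50.7 CPM in Vehicle (a log2 fold change of −2.10, SE 0.50; −0.30 in high-Dbp and −2.73 in low-Dbp libraries). Among the other chemokines, Ccl3, a macrophage chemokine, had 1.28, 1.34 and 2.5 CPM in UCS and 16.0, 8.89 and 0.919 CPM in Vehicle, at 1.06 in high-Dbp and −3.28 in low-Dbp libraries on the log2 scale. Tnf, the tumour necrosis factor gene, had 15.5, 14.9 and 9.65 CPM in UCS and 23.8, 16.3 and 10.3 CPM in Vehicle, with an interval from −1.09 to 0.43 (0.25 in high-Dbp and −0.37 in low-Dbp libraries). Of 26 tested cytokine and receptor genes 25 had a lower fitted value (median −0.38; 9 at an unadjusted p under 0.05), and of 25 tested chemokines 19 did (median −0.61; 9 at an unadjusted p under 0.05), beside 3.27% of all genes that were lower at that threshold. The cytokine median was −0.18 without Vehicle 1, and −0.59 without UCS 3 or −0.57 without Vehicle 3. The chemokine median was −1.35 without UCS 3. Il6, the acute-phase cytokine, did not reach the count filter: it had 4 counts over the UCS and 38 over the Vehicle libraries. These were 0.0, 0.0 and 0.204 CPM in UCS 1, 2 and 3, and 1.19, 0.733 and 0.0 CPM in Vehicle 1, 2 and 3. Retnlg, a resistin-like gene of granulocytes, also stayed below that filter, with 5 counts over the UCS and 247 over the Vehicle libraries. Its Vehicle counts lay mostly in Vehicle 1 and 2, at 5.37 and 6.69 CPM, against 0.306 CPM in Vehicle 3 and at most 0.107 CPM in UCS.

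Within libraries of like Dbp level the neutrophil, chemokine and cytokine medians did not keep one direction. The neutrophil median was 0.45 in high-Dbp libraries (UCS 2 and 3 over Vehicle 3) and −3.58 in low-Dbp libraries (UCS 1 over Vehicle 1 and 2). The chemokine median was 0.40 in high-Dbp and −1.68 in low-Dbp libraries, and the cytokine median 0.11 in high-Dbp and −0.69 in low-Dbp libraries. The interferon-stimulated list, by contrast, was below 0 in both, at −0.10 in high-Dbp and −0.38 in low-Dbp libraries, as was the macrophage list. For Il1b the log2 fold change was 1.04 in high-Dbp and −4.90 in low-Dbp libraries. For S100a8 it was 0.09 in high-Dbp and −5.47 in low-Dbp libraries. The difference between the low-Dbp and high-Dbp fold changes passed for 0 of 16124 genes, with 738 at an unadjusted p under 0.05 and a lowest adjusted p of 0.361. Since high-Dbp Vehicle is a single library, Vehicle 3, a clock difference and a difference of that pool cannot be told apart. Without Vehicle 3, edgeR called 2 genes higher and 35 lower in UCS, among them Cxcr2 (adjusted p = 0.0141), Csf3r (0.0429), Cxcl5 (0.029) and Socs3 (0.0194). Of these 37 calls 8 were also among the 14 of DESeq2 (21.6% of the 37 and 57.1% of the 14).

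**Figure D2:**
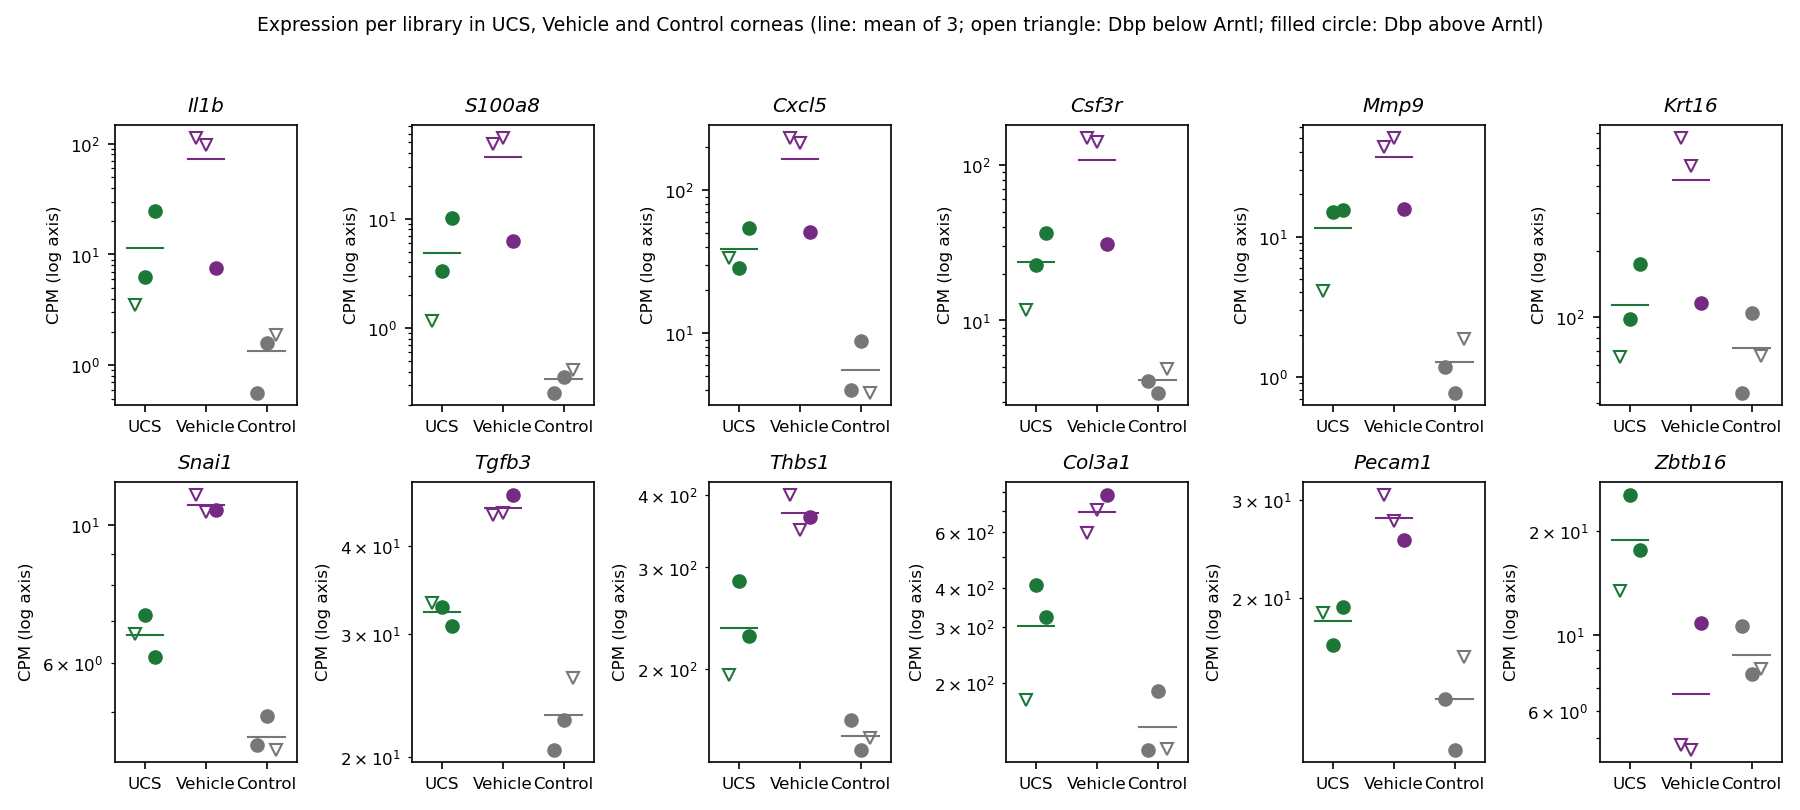
CPM per library (log axis) of 12 genes in UCS, Vehicle and Control corneas; open triangles are libraries with Dbp below Arntl, filled circles libraries with Dbp above Arntl, and the line is the mean of 3. For Il1b, S100a8, Cxcl5, Csf3r, Mmp9 and Krt16 the Vehicle mean rests on the pair of open triangles, while for Snai1, Tgfb3, Thbs1, Col3a1 and Pecam1 all 3 Vehicle libraries lie above all 3 UCS libraries.

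Macrophage genes had a median closer to 0. The list had 20 of 23 tested members with a lower fitted value in UCS, with a median of −0.36 (−0.05 in high-Dbp and −0.84 in low-Dbp libraries). Of the 23, 8 were lower at an unadjusted p under 0.05, against 3.27% of all genes, and 6 had all UCS libraries below all Vehicle libraries, against 4.43%. Csf1r, the receptor for macrophage growth factor, had 47.3, 58.5 and 50 CPM in UCS and 80.6, 67.6 and 64.1 CPM in Vehicle. The groups did not overlap, and the log2 fold change was −0.45 (SE 0.12, interval −0.71 to −0.19; −0.24 in high-Dbp and −0.65 in low-Dbp libraries). Mrc1, the mannose receptor of tissue macrophages, had 23.4, 27.6 and 29.1 CPM in UCS and 54.9, 43.7 and 33.7 CPM in Vehicle (a log2 fold change of −0.72, SE 0.21; −0.25 in high-Dbp and −1.08 in low-Dbp libraries). C1qa, a complement gene that macrophages express, lay within 1.5-fold, at −0.07 (interval −0.37 to 0.23). Genes of antigen presentation and lymphocytes had medians above 0 over all 6 libraries: 9 of 15 MHC class II and dendritic genes (median 0.15) and 9 of 12 T, NK and B cell genes (median 0.46) had a higher fitted value. The MHC class II median was 0.23 in high-Dbp and −0.52 in low-Dbp libraries, and the T, NK and B cell median 0.76 in high-Dbp and −0.08 in low-Dbp libraries. Their highest summed level was in UCS 3, without which the medians were −0.14 and −0.21, in that order, and H2-Ab1, an MHC class II chain, was likewise highest there (55.8, 84.0 and 175 CPM in UCS, 84.5, 83.8 and 101 CPM in Vehicle). Of 21 interferon-stimulated genes 17 had a lower fitted value (median −0.19), 16 had an interval within 2-fold, and Isg15 had one from −0.98 to 0.21.

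Snai1, Tgfb3 and Thbs1, genes tied to TGF-β and the mesenchymal state, were lower in every UCS library than in any Vehicle library, as were 4.43% of all genes. Snai1 was named by a rule that required this lack of overlap at a mean of at least 5 CPM, and Tgfb3 and Thbs1 also meet these conditions. The separation of the 3 genes therefore restates the rule and is no separate support. Snai1, whose product drives epithelial cells towards a mesenchymal state (chr2:167538195-167542814 in GRCm38.p6), had 6.69, 7.18 and 6.13 CPM in UCS and 11.2, 10.5 and 10.6 CPM in Vehicle. Its log2 fold change was −0.69 (SE 0.13, interval −0.96 to −0.41), and it was −0.67 in high-Dbp and −0.69 in low-Dbp libraries. Tgfb3, a TGF-β ligand, had 33.2, 32.7 and 30.8 CPM in UCS and 44.2, 44.5 and 47.3 CPM in Vehicle (a log2 fold change of −0.49, SE 0.10; −0.57 in high-Dbp and −0.42 in low-Dbp libraries). Thbs1, thrombospondin, a matrix protein that can activate latent TGF-β, had 195, 284 and 228 CPM in UCS and 401, 349 and 367 CPM in Vehicle (a log2 fold change of −0.66, SE 0.14; −0.52 in high-Dbp and −0.94 in low-Dbp libraries). Because the groups did not overlap for these 3 genes, a fold change below 0 in both Dbp classes was fixed in advance. The same holds for every other gene here without overlap, in the direction of its difference. Over the whole list of 24 TGF-β and mesenchymal genes, which holds Snai1 and Tgfb3 but not Thbs1, 19 had a lower fitted value and the median was −0.15 (−0.03 in high-Dbp and −0.19 in low-Dbp libraries, and −0.08 without Vehicle 1). Of the 24, 5 were lower at an unadjusted p under 0.05, against 3.27% of all genes, 5 had all UCS libraries below all Vehicle libraries, against 4.43%, and 22 had an interval within 2-fold, against 79.2%. Further from 0 in this list were Inhba, an activin subunit, at −0.86 (−0.03 in high-Dbp and −2.84 in low-Dbp libraries), and Tgfbi, a matrix protein induced by TGF-β, at −0.61 (−0.01 in high-Dbp and −1.16 in low-Dbp libraries). Snai2, a relative of Snai1, was at −0.52 and Tgfbr2, a TGF-β receptor, at −0.36. Tgfb1 had an interval from −0.58 to 0.04, and Zeb1, a transcription factor acting like Snai1, one from −0.39 to 0.14.

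Of 26 matrix and myofibroblast genes 24 had a lower fitted value in UCS (median −0.38; −0.55 in high-Dbp and −0.38 in low-Dbp libraries). Of the 26, 9 were lower at an unadjusted p under 0.05, against 3.27% of all genes, and 9 had all UCS libraries below all Vehicle libraries, against 4.43%. Without Vehicle 3 the matrix median was −0.1. Col3a1, a collagen of repairing tissue, had 176, 409 and 322 CPM in UCS and 596, 702 and 787 CPM in Vehicle (a log2 fold change of −1.20, SE 0.33, interval −1.92 to −0.48; −1.11 in high-Dbp and −1.88 in low-Dbp libraries). Fn1, fibronectin, had 288, 385 and 344 CPM in UCS and 559, 528 and 556 CPM in Vehicle (a log2 fold change of −0.69, SE 0.22; −0.61 in high-Dbp and −0.91 in low-Dbp libraries). Postn, periostin, had 153, 226 and 194 CPM in UCS and 317, 252 and 380 CPM in Vehicle. For these 3 genes the highest UCS library was below the lowest Vehicle library. Acta2, smooth muscle actin and the usual myofibroblast marker, had an interval from −0.31 to 0.66. Col1a1, the main fibrillar collagen, had 971 to 1415 CPM in UCS and 1256 to 2407 CPM in Vehicle, with an interval from −1.05 to 0.25.

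Proteases had 23 of 25 members with a lower fitted value (median −0.54; −0.13 in high-Dbp and −0.79 in low-Dbp libraries). Of the 25, 13 were lower at an unadjusted p under 0.05, against 3.27% of all genes. Mmp3, stromelysin, had 130, 134 and 145 CPM in UCS and 436, 341 and 206 CPM in Vehicle, without overlap (log2 fold change −1.27, SE 0.30, interval −1.93 to −0.60; −0.57 in high-Dbp and −1.58 in low-Dbp libraries). Mmp13, a collagenase, had 6.38, 12.6 and 22.4 CPM in UCS and 65.2, 34.4 and 36.6 CPM in Vehicle (a log2 fold change of −1.72, SE 0.51; −1.06 in high-Dbp and −2.96 in low-Dbp libraries). Mmp9, a gelatinase of neutrophils and wound epithelium, had 4.09, 15.0 and 15.5 CPM in UCS and 43.5, 50.6 and 15.8 CPM in Vehicle, so Vehicle 3 was level with UCS 2 and UCS 3. Its log2 fold change was −1.66 (SE 0.51), and it was −0.05 in high-Dbp and −3.52 in low-Dbp libraries. Vessel genes were lower by a smaller amount, with 18 of 23 below 0 (median −0.25, at −0.40 in high-Dbp and −0.11 in low-Dbp libraries). Of the 23, 5 were lower at an unadjusted p under 0.05, against 3.27% of all genes. All UCS libraries lay below all Vehicle libraries for 4 of the 23, against 4.43% of all genes. Pecam1, the endothelial adhesion molecule, had 18.8, 16.5 and 19.3 CPM in UCS and 30.7, 27.5 and 25.5 CPM in Vehicle, without overlap (log2 fold change −0.61, SE 0.15, interval −0.93 to −0.29; −0.51 in high-Dbp and −0.63 in low-Dbp libraries). Vegfa, the main growth factor for vessels, had an interval from −0.39 to 0.25.

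The promoters of 3 of these genes are shown because they stand for the different patterns: Il1b for genes carried by the low-Dbp Vehicle libraries, Mmp3 for the proteases and Snai1 for genes whose fold change was alike in both Dbp classes. Each runs from 250 bases before to 50 bases after the start of the gene, from RefSeq in the build GRCm38.p6, in the direction of the gene. Capitals mark matches on either strand to 4 motifs. The core promoter box TATAAA occurs in 13.6% of all 32851 promoters of that length. A core of the NF-κB motif, GGANTTTCC, occurs in 1.25%. The AP-1 letters TGANTCA occur in 7.81%, and the E-box CACGTG in 7.15%.
Il1b (chr2:129371090-129371389, minus strand): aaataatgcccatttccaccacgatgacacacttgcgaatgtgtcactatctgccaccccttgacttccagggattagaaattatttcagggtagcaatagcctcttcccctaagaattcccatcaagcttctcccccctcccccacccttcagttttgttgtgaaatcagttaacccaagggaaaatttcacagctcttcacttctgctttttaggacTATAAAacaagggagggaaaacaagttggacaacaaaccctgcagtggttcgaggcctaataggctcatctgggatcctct
Mmp3 (chr9:7445572-7445871, plus strand): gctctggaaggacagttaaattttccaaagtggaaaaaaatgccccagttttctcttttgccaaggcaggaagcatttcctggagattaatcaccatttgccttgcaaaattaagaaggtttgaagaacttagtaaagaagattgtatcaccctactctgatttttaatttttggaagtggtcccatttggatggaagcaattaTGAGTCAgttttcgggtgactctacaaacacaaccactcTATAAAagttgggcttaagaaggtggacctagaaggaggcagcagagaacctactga
Snai1 (chr2:167537945-167538244, plus strand): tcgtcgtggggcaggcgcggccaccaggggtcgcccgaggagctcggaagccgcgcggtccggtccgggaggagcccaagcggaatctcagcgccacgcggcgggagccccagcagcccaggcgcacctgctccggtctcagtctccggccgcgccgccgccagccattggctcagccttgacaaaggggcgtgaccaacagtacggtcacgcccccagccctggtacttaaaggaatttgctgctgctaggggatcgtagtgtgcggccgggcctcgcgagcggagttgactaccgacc
Il1b had a TATA box that begins at base 220. Mmp3 had an AP-1 site from base 205 and a TATA box from base 244, and the Snai1 window held none of these letters. A match describes the letters of the window and is not a site of binding.

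Epithelial lists did not share a direction. Of 24 corneal surface genes 17 had a higher fitted value (median 0.25; 0.08 in high-Dbp and 0.46 in low-Dbp libraries), and 3 were higher at an unadjusted p under 0.05, against 1.58% of all genes. Of 25 junction genes 17 had a higher fitted value (median 0.12), and 23 had an interval within 2-fold. Of 19 basal, limbal and wound keratinocyte genes, 15 had a lower fitted value (median −0.24; −0.04 in high-Dbp and −0.35 in low-Dbp libraries, and −0.07 without Vehicle 1). Of 20 cornified envelope and epidermal genes 14 had a lower fitted value (median −0.13; 0.19 in high-Dbp and −0.13 in low-Dbp libraries, and 0.08 without Vehicle 1). Pax6 had 576, 542 and 480 CPM in UCS and 440, 381 and 445 CPM in Vehicle, without overlap, and a log2 fold change of 0.34 (SE 0.13, interval 0.06 to 0.61; 0.20 in high-Dbp and 0.49 in low-Dbp libraries). Aldh3a1, the corneal crystallin that absorbs ultraviolet light, had 2150, 1685 and 965 CPM in UCS and 916, 654 and 1487 CPM in Vehicle, against a Control mean of 11410 CPM; its log2 fold change was −0.17 in high-Dbp and 1.45 in low-Dbp libraries. For Krt12 the interval ran from −1.80 to 3.30, so differences of several fold either way are inside it; both groups stayed far below the Control mean. Slurp1, a secreted protein of healthy corneal epithelium, had at most 0.638 CPM in UCS and 1.07 CPM in Vehicle, against a Control mean of 1513 CPM. In the stroma, keratocyte genes had no common direction, with 7 of 12 higher and 5 lower (median 0.02; −0.37 in high-Dbp and 0.24 in low-Dbp libraries). Kera, the keratocyte proteoglycan keratocan, had 216, 185 and 145 CPM in UCS and 123, 62.0 and 133 CPM in Vehicle (a log2 fold change of 0.78, interval 0.06 to 1.51; 0.31 in high-Dbp and 1.23 in low-Dbp libraries). Lum, the keratocyte proteoglycan lumican, was at −0.25, and Cd34, a surface protein of keratocytes, at −0.32.

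Conjunctiva-type transcripts remained in both groups. Of 17 tested conjunctiva and goblet cell genes, 8 had a higher and 9 a lower fitted value (median −0.09; −0.23 in high-Dbp and 0.03 in low-Dbp libraries). Muc5ac, the gel-forming mucin of goblet cells, had 437, 243 and 444 CPM in UCS and 655, 457 and 519 CPM in Vehicle, against a Control mean of 1.23 CPM. Its groups did not overlap, yet its interval ran from −1.40 to 0.33. Muc5b, a second gel-forming mucin, had 70.8, 30.3 and 58.7 CPM in UCS and 226, 161 and 73.4 CPM in Vehicle (a log2 fold change of −1.52, SE 0.38, interval −2.36 to −0.69; −0.72 in high-Dbp and −1.45 in low-Dbp libraries). Among basal and wound genes, Krt14, a basal keratin, had 2280, 3486 and 3606 CPM in UCS and 5808, 4810 and 3642 CPM in Vehicle. Krt16, a keratin of wounded epithelium, was highest in the low-Dbp Vehicle libraries: it had 65.5, 98.1 and 176 CPM in UCS and 667, 493 and 116 CPM in Vehicle.

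Nerve-related lists differed in direction and in precision. Of 46 axon guidance genes 42 had an interval within 2-fold (median 0.02), as had 18 of 24 neurotrophic genes (median 0.01), beside 79.2% of all genes. Of 26 axon growth genes 21 had a lower fitted value (median −0.22; −0.16 in high-Dbp and −0.67 in low-Dbp libraries) and 10 had an interval within 2-fold. The axon growth median was −0.09 without UCS 1 or Vehicle 2, −0.47 without UCS 3 and −0.48 without Vehicle 1. Of the 26, 1 was lower at an unadjusted p under 0.05, close to the share of 3.27% over all genes. The retina list median moved in a similar way, at −0.17 in high-Dbp and −0.66 in low-Dbp libraries. It was 0.02 without UCS 1, 0.23 without Vehicle 2, −0.54 without UCS 3 and −0.59 without Vehicle 1. Whether retinal transcripts share in the axon growth values was not tested. Piezo2, a mechanosensory channel, had an interval from −0.74 to 0.07, and Gap43, a growth cone protein, one from −0.98 to 0.14. Ntf3, neurotrophin-3, had 10.2, 10.8 and 7.25 CPM in UCS and 6.56, 5.37 and 7.81 CPM in Vehicle (a log2 fold change of 0.52, interval 0.06 to 0.97; 0.21 in high-Dbp and 0.77 in low-Dbp libraries). Transcripts of sensory neurons were near the counting limit: Trpv1, the capsaicin receptor, had at most 0.153 CPM in UCS and 0.255 CPM in Vehicle.

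Zbtb16, Lifr and Tnfsf10 were among the genes named by rule as higher in UCS without overlap. Zbtb16, a zinc finger factor that glucocorticoids induce, had 13.4, 25.4 and 17.6 CPM in UCS and 4.80, 4.64 and 10.8 CPM in Vehicle. Its log2 fold change was 1.48 (SE 0.33, interval 0.76 to 2.20), at 1.0 in high-Dbp and 1.5 in low-Dbp libraries. Lifr, the receptor for leukaemia inhibitory factor, had 118, 81.6 and 90.7 CPM in UCS and 53.9, 47.3 and 72.4 CPM in Vehicle (a log2 fold change of 0.74, SE 0.17; 0.25 in high-Dbp and 1.22 in low-Dbp libraries). The low-Dbp minus high-Dbp difference for Lifr was 0.97 (SE 0.23, adjusted p = 0.509 with edgeR's quasi-likelihood test). The Control mean was 76.11 CPM for Lifr, above all 3 Vehicle libraries, and 8.729 CPM for Zbtb16, above 2 of the 3. Tnfsf10, the death ligand TRAIL, had 38.7, 29.9 and 40.1 CPM in UCS and 21.9, 18.7 and 28.4 CPM in Vehicle (a log2 fold change of 0.66, SE 0.17; 0.30 in high-Dbp and 0.93 in low-Dbp libraries).

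**Figure D3:**
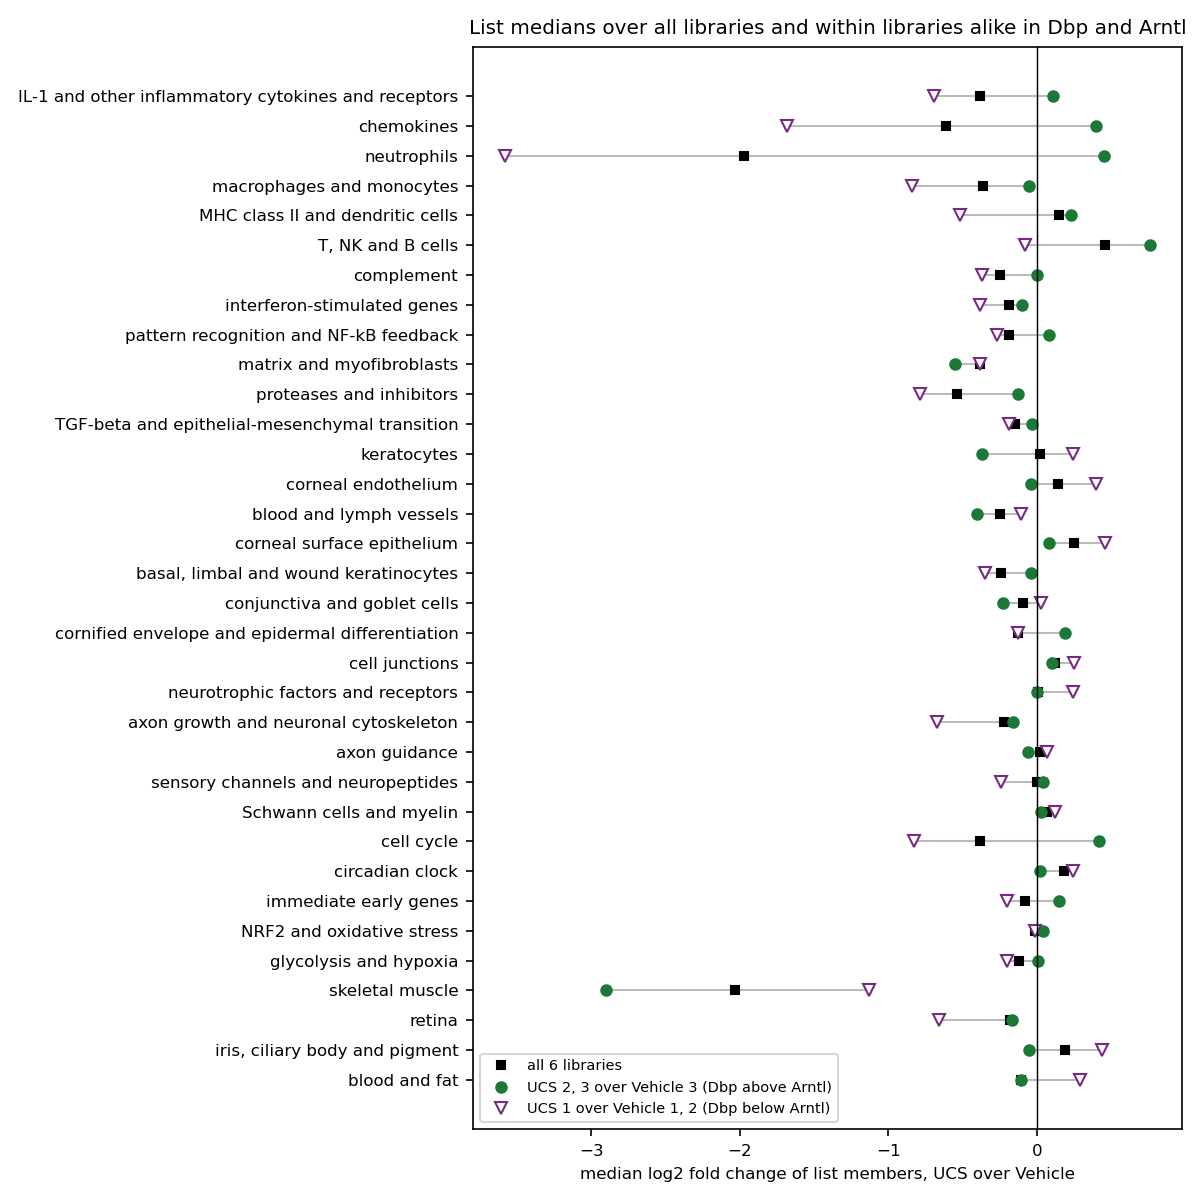
Median log2 fold change of UCS over Vehicle for 34 gene lists (the lens list, which depends on 1 library in each group, is left out), over all 6 libraries (squares), in high-Dbp libraries (filled circles) and in low-Dbp libraries (open triangles). Neutrophil, chemokine and cell cycle medians lie on opposite sides of 0 in the 2 Dbp classes. Lists with medians below 0 in both include matrix, vessel, protease, interferon-stimulated, macrophage and TGF-β genes. They also include skeletal muscle and retina genes of neighbouring tissue, and axon growth and basal keratinocyte genes. Of these, macrophage (−0.05), basal keratinocyte (−0.04) and TGF-β (−0.03) medians are near 0 in high-Dbp libraries.

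Across the 35 lists, 10 had a median below 0 in both Dbp classes and 4 a median above 0 in both. The cell cycle list had 28 of 29 members with a lower fitted value in UCS, 0 of them at an unadjusted p under 0.05, and medians of 0.42 in high-Dbp and −0.83 in low-Dbp libraries; over all 6 libraries it was −0.38, and −0.17 without Vehicle 1 or −0.69 without Vehicle 3. Top2a, a topoisomerase of dividing cells, had 67.6, 58.2 and 100 CPM in UCS and 152, 125 and 49.2 CPM in Vehicle, so Vehicle 3 was lowest of all. Transcripts of neighbouring tissue varied between pools. The summed level of the skeletal muscle list was 371.8, 529.8 and 93.4 CPM in UCS and 394.2, 1099 and 2401 CPM in Vehicle, with a median log2 fold change of −2.03 (−1.16 without Vehicle 3). Myh13, a myosin of eye muscle, had at most 0.319 CPM in UCS and 0.568, 33.3 and 78.5 CPM in Vehicle; it is among the DESeq2 calls above. The lens list summed to 290.9, 15880 and 219.6 CPM in UCS and 527.1, 11840 and 569 CPM in Vehicle. The retina list summed to 5001, 6650 and 10610 CPM in UCS and 2850, 12960 and 9778 CPM in Vehicle. The muscle list was highest in Vehicle 3, where the neutrophil list was lowest of the Vehicle libraries (1573, 1433 and 804.1 CPM, against 398.9, 530.3 and 1105 CPM in UCS); the part of the tissue share in the gene results was not tested.

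**Figure D4:**
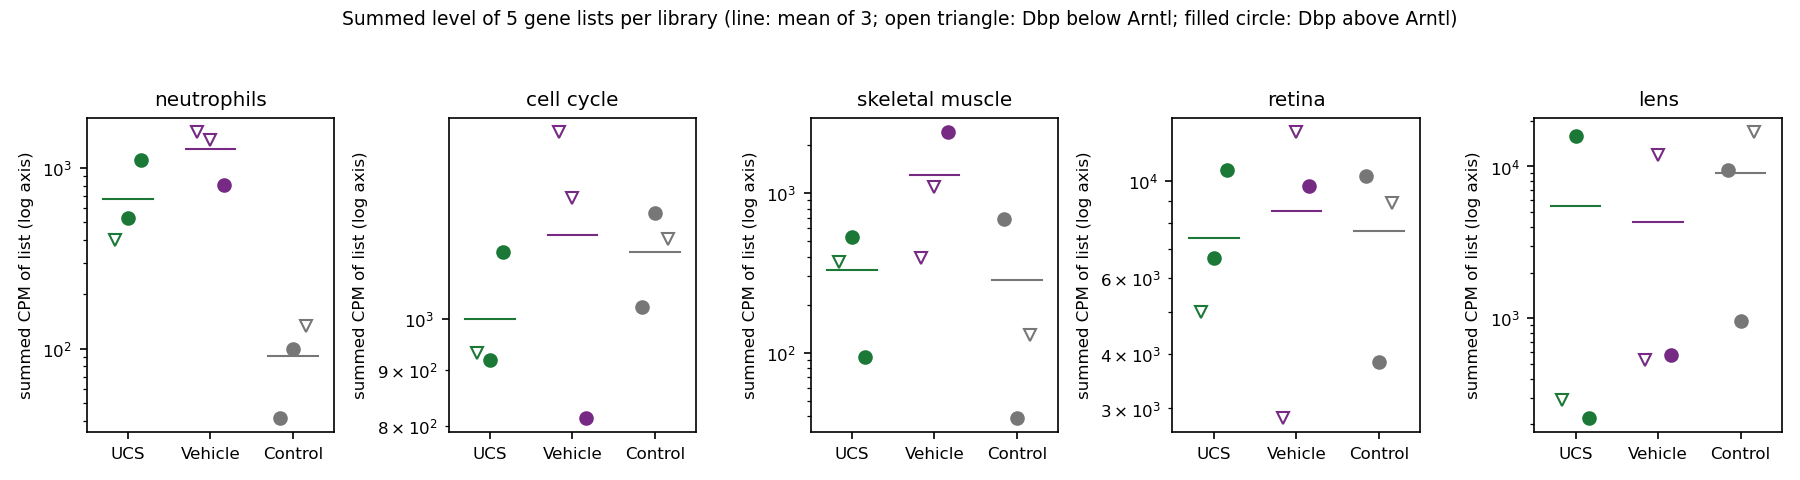
Summed CPM (log axis) of 5 gene lists per library in UCS, Vehicle and Control corneas, with symbols as for the single genes. Lens transcripts are high in UCS 2 and Vehicle 2, muscle transcripts in Vehicle 2 and 3, and neutrophil transcripts in UCS 3 and in Vehicle 1 and 2.

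UCS and UCPRP, the other cord blood product, were compared directly. Of 16124 genes 0 (0%) were called, with 393 at an unadjusted p under 0.05 and a lowest adjusted p of 0.985, and 79.1% of genes had an interval within 2-fold. Zbtb16 had an UCS over UCPRP log2 fold change of 0.85 (interval 0.15 to 1.56) and Muc16, a membrane mucin, one of 0.96 (interval 0.30 to 1.63). For Il1b it was 0.31, for Cxcr2 −0.06 and for Snai1 −0.26 (interval −0.54 to 0.01). All 3 UCPRP libraries were high-Dbp.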

How the data were processed

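Total RNA of pooled corneas was made into TruSeq Stranded Total RNA libraries, per the labels' protocols. HISAT and the build GRCm38 are named in the submitters' processing notes; the sources used here give no counting tool, annotation or strand setting. Values deposited by the authors are estimated counts, called read counts per the file headers; 64.9% were whole (no more than 1e-09 above a whole number), and the rest were rounded. Near-identical or overlapping genes are therefore uncertain. Of 19702 genes, 16124 passed filterByExpr (minimum count 10). All 12 libraries were scaled by TMM (0.994 to 1.067 in the 6) and fitted in edgeR 4.0.16 (R 4.3.3) with 1 term per group and robust quasi-likelihood tests, two-sided, with Benjamini-Hochberg adjustment over all genes and a threshold of 0.05. The SE is the absolute log2 fold change over the square root of F, and intervals use the fit's degrees of freedom (median 11.2). The script was tested on simulated data. CPM are counts scaled to a library total of 1 M. Alternatives used DESeq2 1.42.0, limma 3.58.1, other filters, scaling and left-out libraries.

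Genes were named by rule: in each direction the 10 lowest p-values without overlap and the 5 largest differences at a mean of at least 5 CPM, up to 4 members per list, a fixed set, and the 5 tightest intervals above 100 CPM; others were chosen after their values were seen. The 35 lists hold 735 symbols, 687 of them tested. The comparison, members and lists were chosen with earlier results of these data known. The labels do not say whether pools came from separate cohorts, so p-values measure the spread between these pools. The labels state no pairing by library number, and the groups were fitted unpaired. The promoters come from RefSeq. Some genes are not reported here.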

Additional observations from a re-analysis of the deposited data

How the results depend on the processing

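In UCS against Vehicle the counts of called genes were 0 higher and 0 lower with edgeR, with limma-voom, with RLE scaling, without a filter, at a mean of at least 5 CPM, with the 2 groups alone and with a term for Dbp class. DESeq2 gave 2 higher and 12 lower. Leaving out 1 library gave 0 to 2 higher and 0 to 35 lower; every call came without Vehicle 3 (2 higher and 35 lower). Genes at an unadjusted p under 0.05 numbered 782, and 454 to 1424 with 1 library left out: 471 without UCS 1, 454 without Vehicle 2 and 1424 without Vehicle 3. They numbered 246 in high-Dbp libraries and 1178 in low-Dbp libraries, both added after seeing the data, with 0 genes called in either; where 1 library stands alone, it is assumed to vary like the others. The count of genes with an interval within 2-fold ran from 11897 to 12384 with 1 library left out, against 12778. Whether replicate numbers pair the libraries was not settled. Correlations of the deviations were 0.34, 0.271 and −0.139, with 4 of 6 libraries closest to their own number. The replicate block gave 0 calls and 663 genes at an unadjusted p under 0.05. UCS against UCPRP gave 0 calls in each alternative run. Medians of 12 of the 35 lists kept their sign in every setting that gave them (16; no T, NK or B cell gene reached a mean of 5 CPM). The causes of these changes were not tested. Intervals were widest for genes under 1 CPM, of which 9.92% had an interval within 2-fold. The parts of depth and of spread between pools in this were not tested.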
